A study of Homo sapiens with 21 samples.

Results

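The genes described here are 9 genes tied to YAP and to transforming growth factor beta (TGF-β) signalling: CCN1, CCN2, ANKRD1, AMOTL2, LATS2, THBS1, TGFB1, TGFB2 and YAP1. They were chosen by name, with earlier results of these data known, and matched to the Ensembl gene IDs of a count table with 37637 features. All 9 were found in the table. Of the 17468 features with enough reads to test, 8 were from this set, and TGFB2 was left out for low counts. Caffeine has been reported to lower CCN2 in hepatocytes.

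YAP1 is a transcriptional coactivator that enters the nucleus when the Hippo kinases are inactive and switches on genes through the TEAD DNA-binding proteins. Among the best known targets are CCN1, CCN2 and ANKRD1, and also AMOTL2 and LATS2, whose products feed back to restrain YAP. TGF-β ligands are secreted in a latent form, signal through receptor kinases and SMAD proteins, and induce many matrix genes. CCN2 (connective tissue growth factor) responds to both pathways and is studied in liver as a fibrosis gene.

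HepG2 is an established human liver cancer cell line with many hepatocyte traits. Cells were washed and kept for 6 h in fresh serum-free DMEM with caffeine at 0, 0.01, 0.1, 1, 10, 100 or 1000 µM, with 3 biological replicates at each concentration and 21 libraries in all. The 0 µM cells also spent these 6 h without serum, and cells of all groups were detached with trypsin-EDTA before RNA extraction. The series' design text names coumarin for the 0 µM group, while the sample labels say caffeine at 0 µM and untreated, and the labels were followed.

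Total counts ran from 28043623 to 40827833 per library, and mitochondrially encoded genes took 4.95% to 14.2% of them. Levels are given as CPM, the usual read count scaled to a common library total (here after TMM scaling). A count of 3, taken as the floor for a gene not seen, was worth 0.0735 to 0.107 CPM. Differences are log2 fold changes with a standard error (SE) from edgeR's quasi-likelihood test, and a gene is said to have risen, fallen or passed only where its Benjamini-Hochberg adjusted p over all 17468 features was under 0.05. The 9 hepatocyte markers, all tested, summed to 24462 to 29783 CPM. Of 9 stellate and fibroblast markers, COL1A2 was at 0 in all libraries, DES, LRAT, PDGFRA, LUM, DCN and COL3A1 had at most 2 counts, and the sum ran from 4.68 to 6.39 CPM below 1000 µM and from 9.15 to 9.55 CPM at 1000 µM, mostly PDGFRB. Endothelial markers summed to 0.641 to 1.30 CPM below 1000 µM and 1.17 to 1.40 CPM at 1000 µM. Macrophage markers summed to 917 to 1421 CPM through LYZ and CD68, with PTPRC, CD163 and CSF1R at 0 or 1 count.

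The stretch of DNA just before a gene's start is where TEAD proteins are known to act on several of these genes, so it is shown first. RefSeq promoter windows of 250 bases before the start (GRCh38.p14) were searched on both strands for GGAATG, the letters of the TEAD motif. The search covered 35116 windows, of which 11.9% held at least 1 match, 0.94% at least 2 and 0.0826% at least 3. Entries were found for 8 of the 9 genes. CCN2 held 3 matches, at 169, 104 and 95 bases before its start, and ANKRD1 held 2, at 220 and 128 bases. ANKRD1 also held 1 match to TGANTCA, a loose form of the AP-1 motif with N as any base, at 195 bases. It reads TGATTCA, without the C or G usual in the middle of an AP-1 site. The loose form was in 6.57% of windows. AMOTL2 has 2 entries, and the first held 1 TEAD match on the opposite strand at 69 bases, while the second held none. YAP1, THBS1 and TGFB2 held 1 match each, at 162, 46 and 185 bases, and LATS2 and TGFB1 held none. The palindrome GTCTAGAC, a SMAD motif found in 0.182% of windows, was in none of these windows. Only this full palindrome was searched for, so its absence does not show that the windows lack shorter SMAD sites. The windows of the CCN2 (chr6:131951373-131951622), ANKRD1 (chr10:90921088-90921337) and AMOTL2 genes (first start, chr3:134374448-134374697), all on the minus strand, are printed because these genes fell with caffeine. They run 5′ to 3′ toward the start, and capitals mark the TEAD letters on either strand.
CCN2: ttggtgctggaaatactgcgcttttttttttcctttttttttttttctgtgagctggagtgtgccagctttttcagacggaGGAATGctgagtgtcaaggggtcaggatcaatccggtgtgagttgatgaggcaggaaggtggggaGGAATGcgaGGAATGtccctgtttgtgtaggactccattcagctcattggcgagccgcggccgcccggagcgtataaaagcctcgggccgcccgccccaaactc
ANKRD1: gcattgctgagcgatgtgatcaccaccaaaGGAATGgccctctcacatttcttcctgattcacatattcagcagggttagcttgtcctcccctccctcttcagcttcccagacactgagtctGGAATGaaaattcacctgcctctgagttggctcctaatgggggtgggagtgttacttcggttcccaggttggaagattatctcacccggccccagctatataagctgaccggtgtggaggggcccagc
AMOTL2: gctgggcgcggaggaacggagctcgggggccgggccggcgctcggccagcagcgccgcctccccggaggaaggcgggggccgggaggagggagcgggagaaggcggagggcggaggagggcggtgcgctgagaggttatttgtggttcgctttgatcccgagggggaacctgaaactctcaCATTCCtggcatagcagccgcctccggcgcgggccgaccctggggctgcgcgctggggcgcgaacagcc
The matches are letters in a window and were not tested for binding.

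**Figure D1:**
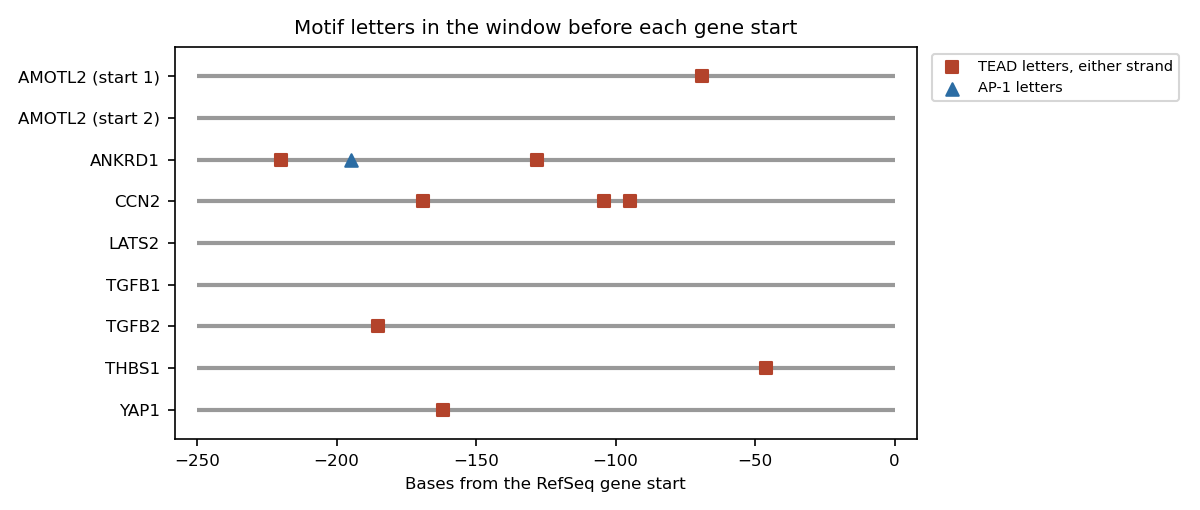
Positions of TEAD letters (GGAATG on either strand, squares) and of a loose AP-1 form (TGANTCA, N any base, triangle) in the 250 bases before each RefSeq start. The x axis is the distance in bases from the start, and CCN2 carries 3 squares and ANKRD1 2.

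At 1000 µM against 0 µM, 4 target genes of YAP fell and YAP1 itself rose. AMOTL2 fell most, followed by CCN1, CCN2 and ANKRD1. LATS2, THBS1 and TGFB1 did not pass, so 5 of 8 tested genes were called (4 lower and 1 higher), and the same 5 had 1000 µM libraries that did not overlap the 0 µM libraries. At this dose 41.2% of all features tested were called, 20.6% higher and 20.6% lower, and for 53.2% the 2 groups did not overlap, so calls and separated groups were common over the whole table. The median log2 fold change of the 8 was -0.15, against -0.03 over all features.

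**Figure D2:**
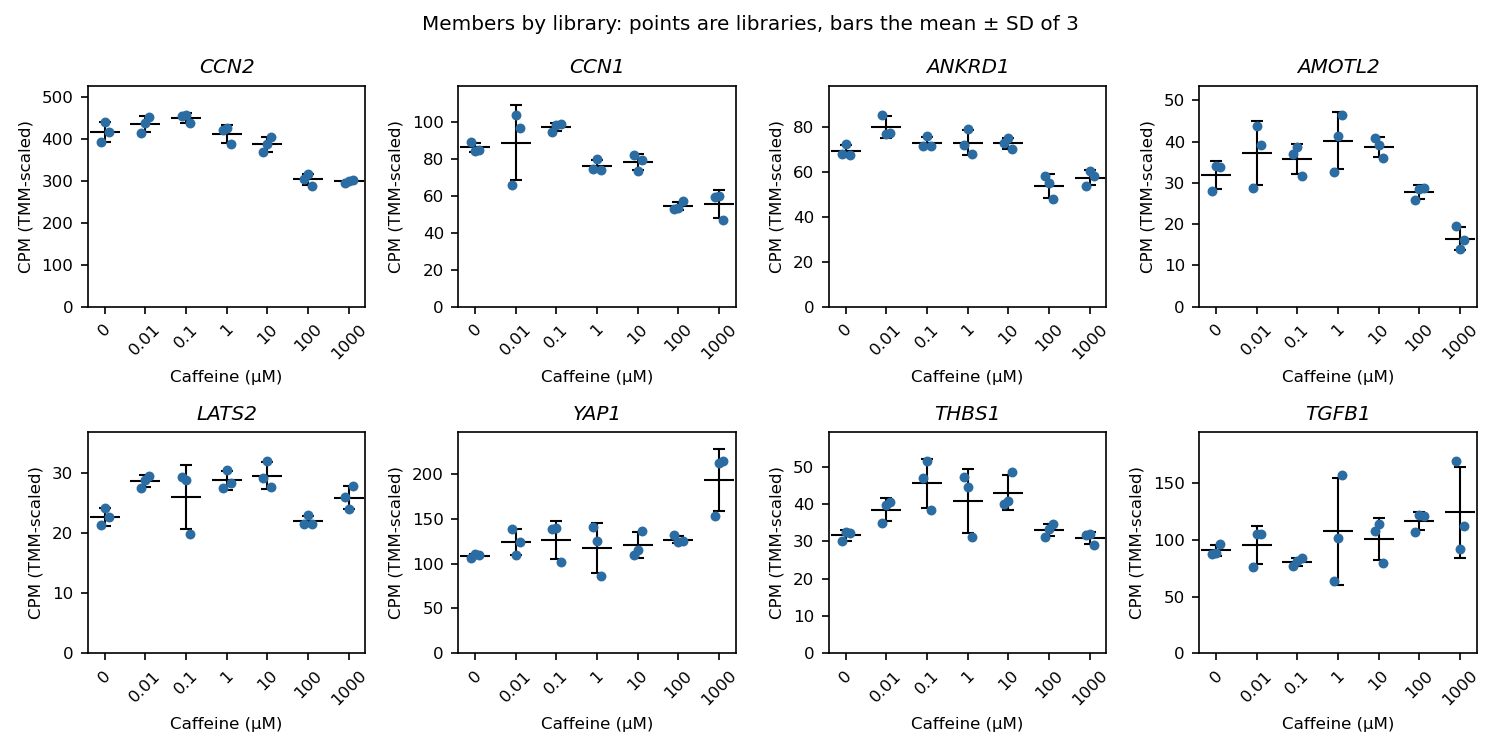
CPM (TMM-scaled, linear axis from 0) of the 8 tested genes at each caffeine concentration in µM. Points are libraries, and bars are the mean ± SD of 3. CCN2, CCN1 and ANKRD1 are lower at 100 and 1000 µM than at all lower concentrations, AMOTL2 drops at 1000 µM, and YAP1 rises at 1000 µM.

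Compared per kilobase of exon, CCN2 was the most abundant of the 9, with a mean over the 21 libraries of 165 CPM per kb. ANKRD1 (34.7 CPM per kb), TGFB1 (31.6), CCN1 (31.2) and YAP1 (20.8) formed a middle group on the same scale. AMOTL2 (5.45 CPM per kb), LATS2 (4.70) and THBS1 (4.11) were lower, and TGFB2 was near 0. Exon lengths and gene positions were those of GENCODE release 29 on GRCh38. Several genes named from the lists, such as WWTR1, AXL, ITGAV, ZEB1 and ACTA2, share exon bases with a gene on the other strand, and since strand use is unknown their values are uncertain to that extent. The same holds for YAP1 (628 bases with AP000942.2) and THBS1 (448 with FSIP1 and 411 with AC037198.2). AMOTL2 shares 187 bases with RPL39P5 on its own strand. FSIP1 had 1 to 11 counts and AC037198.2 had 0 to 3, while AP000942.2 and RPL39P5 are not in the count table.

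YAP1 (ENSG00000137693.14; GRCh38 chr11:102110461-102233423, plus strand) stood at 106, 110 and 110 CPM in the 3 libraries at 0 µM. It stood at 131, 124 and 125 CPM at 100 µM and at 153, 213 and 214 CPM at 1000 µM. All 3 libraries at 1000 µM lay above every library at the other concentrations. The rise at 1000 µM against 0 µM was 0.83 ± 0.17 (log2 ± SE, 95% interval 0.48 to 1.18, edgeR's quasi-likelihood test, Benjamini-Hochberg adjusted p = 0.000708). It stood at 139, 110 and 124 CPM at 0.01 µM, at 138, 140 and 102 CPM at 0.1 µM, at 141, 126 and 86.1 CPM at 1 µM and at 110, 115 and 137 CPM at 10 µM. Each of these groups overlapped the 0 µM libraries, and at 100 µM the difference of 0.22 ± 0.16 did not pass. With only the 6 libraries at 0 and 100 µM in the fit it passed (adjusted p = 0.0281, edgeR's quasi-likelihood test). Between 100 and 1000 µM YAP1 rose by 0.61 ± 0.16 (edgeR's quasi-likelihood test, Benjamini-Hochberg adjusted p = 0.0186). That call was lost without 100 µM replicate 2 (adjusted p = 0.0640), 100 µM replicate 3 (0.0533), 1000 µM replicate 2 (0.0681) or 1000 µM replicate 3 (0.0952), while the call against 0 µM held without any 1 library.

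LATS2 (ENSG00000150457.9; chr13:20973032-21061547, minus strand), a Hippo kinase that phosphorylates YAP and is itself a YAP target, was not called at either of the 2 highest doses. Its 3 libraries stood at 21.3, 24.2 and 22.6 CPM at 0 µM, at 21.6, 22.9 and 21.5 CPM at 100 µM and at 25.9, 24.0 and 27.8 CPM at 1000 µM. The groups at 0, 100 and 1000 µM were close together or overlapped, and the difference at 1000 µM was 0.19 ± 0.12 (95% interval -0.06 to 0.44). At 0.01 µM LATS2 stood at 27.5, 28.9 and 29.5 CPM, at 0.1 µM at 29.3, 28.8 and 19.9 CPM and at 1 µM at 27.5, 30.5 and 28.3 CPM. The libraries at 0.01 and 1 µM were all above those at 0 µM, but neither difference passed (0.34 ± 0.12 for both doses). Both passed with DESeq2 (adjusted p = 0.0299 and 0.0370). The difference at 0.1 µM passed without 0.1 µM replicate 3 (adjusted p = 0.0337, edgeR's quasi-likelihood test). At 10 µM the libraries stood at 29.1, 31.9 and 27.6 CPM, all above the 0 µM libraries, a rise of 0.38 ± 0.12 (edgeR's quasi-likelihood test, Benjamini-Hochberg adjusted p = 0.0268). This call was lost without 0 µM replicate 1 (adjusted p = 0.117), 0 µM replicate 3 (0.0583), 10 µM replicate 1 (0.0721) or 10 µM replicate 2 (0.116).

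AMOTL2 (ENSG00000114019.14; chr3:134355874-134375479, minus strand) encodes an angiomotin family protein that binds YAP and holds it out of the nucleus. Its relatives AMOT and AMOTL1 had 0 to 4 counts per library and were not tested. AMOTL2 stood at 28.0, 34.0 and 33.8 CPM at 0 µM, at 25.7, 28.6 and 28.7 CPM at 100 µM and at 19.5, 14.1 and 16.1 CPM at 1000 µM. The libraries at 1000 µM were the lowest of the 21, while those at 100 µM overlapped the 0 µM libraries. The fall at 1000 µM was 0.95 on the log2 scale, with an SE of 0.16 (95% interval -1.29 to -0.62, edgeR's quasi-likelihood test, Benjamini-Hochberg adjusted p = 0.000147). Against 100 µM it was still -0.75 ± 0.16 (adjusted p = 0.00377 by the same test). It stood at 28.7, 43.9 and 39.2 CPM at 0.01 µM and at 37.0, 38.6 and 31.6 CPM at 0.1 µM. At 1 µM it stood at 32.7, 41.4 and 46.5 CPM and at 10 µM at 40.9, 39.2 and 36.1 CPM, where all 3 libraries were above those at 0 µM. From 0.01 to 10 µM the mean was 35.8 to 40.2 CPM, above the 32.0 ± 3.38 CPM (SD, n = 3) at 0 µM, but no such difference passed.

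CCN2 (ENSG00000118523.6; chr6:131948176-131951373, minus strand), the secreted matrix-associated protein also called CTGF, stood at 394, 441 and 418 CPM at 0 µM. The libraries stood at 306, 317 and 289 CPM at 100 µM and at 296, 299 and 303 CPM at 1000 µM. Both high-dose groups lay below every library of the other 5 groups, and they overlapped each other. The mean was 418 ± 23.5 CPM at 0 µM, 304 ± 13.9 at 100 µM and 299 ± 3.57 at 1000 µM (SD, n = 3). The log2 difference from 0 µM was -0.46 ± 0.07 at 100 µM (adjusted p = 0.00421) and -0.48 ± 0.07 at 1000 µM (95% interval -0.63 to -0.33, adjusted p = 4.9e-05, edgeR's quasi-likelihood test, Benjamini-Hochberg adjusted).

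The other libraries of CCN2 stood at 416, 438 and 454 CPM at 0.01 µM, at 455, 458 and 438 CPM at 0.1 µM, at 422, 427 and 389 CPM at 1 µM and at 369, 389 and 406 CPM at 10 µM. Ordered by its mean, CCN2 was highest at 0.1 µM (450 ± 11.1 CPM), then 0.01 µM (436 ± 19.1), 0 µM (418), 1 µM (413 ± 20.8) and 10 µM (388 ± 18.2), then 100 and 1000 µM (SD, n = 3). Neighbours in this order overlapped in their libraries except 10 and 100 µM, where the lowest library at 10 µM was at 369 CPM and the highest at 100 µM at 317 CPM. Even this step of -0.35 ± 0.07 did not pass after adjustment (edgeR's quasi-likelihood test, Benjamini-Hochberg adjusted p = 0.103, unadjusted 8.99e-05). It passed with DESeq2 and with the mitochondrial share as a covariate (adjusted p = 0.0379). Between 100 and 1000 µM the difference was -0.02 with a 95% interval of -0.17 to 0.13. An antisense transcript, AL133346.1, shares 195 exon bases with CCN2 and had 12 to 91 counts per library, against 9319 to 16675 for CCN2.

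CCN1 (ENSG00000142871.17; chr1:85580761-85583962, plus strand), the related matricellular protein also called CYR61, followed the same course. It stood at 88.9, 84.3 and 84.8 CPM at 0 µM, at 52.8, 53.5 and 56.8 CPM at 100 µM and at 59.5, 60.0 and 46.7 CPM at 1000 µM. At 0.01 µM CCN1 stood at 65.6, 104 and 96.6 CPM, and at 0.1 µM at 94.4, 98.3 and 98.7 CPM. At 1 µM it stood at 74.5, 79.8 and 73.7 CPM and at 10 µM at 81.9, 73.2 and 79.3 CPM. All 6 high-dose libraries lay below every other library, the nearest being 65.6 CPM in 1 library at 0.01 µM. The difference from 0 µM was -0.66 ± 0.13 at 100 µM (adjusted p = 0.0152) and -0.63 ± 0.13 at 1000 µM (95% interval -0.91 to -0.36, adjusted p = 0.000754, edgeR's quasi-likelihood test, Benjamini-Hochberg adjusted). The call at 100 µM was lost without 0 µM replicate 1 (adjusted p = 0.0677), 0 µM replicate 2 (0.0871), 100 µM replicate 2 (0.0656) or 100 µM replicate 3 (0.0697). Of the other CCN family genes, CCN4 and CCN5 were at 0 in all 21 libraries, and CCN3 and CCN6 had at most 1 and 5 counts.

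ANKRD1 (ENSG00000148677.6; chr10:90912096-90921276, minus strand), a nuclear ankyrin-repeat cofactor used as a YAP reporter gene, showed the smallest fall at 1000 µM among the genes called. It stood at 68.1, 72.5 and 67.9 CPM at 0 µM, at 58.3, 55.0 and 47.9 CPM at 100 µM and at 53.7, 60.4 and 58.5 CPM at 1000 µM. From 0.01 to 10 µM ANKRD1 ranged from 68.0 to 85.7 CPM, highest at 0.01 µM with 85.7, 77.0 and 77.5 CPM. The high-dose libraries lay below all 15 others, the nearest of which was at 67.9 CPM. The difference from 0 µM was -0.37 ± 0.08 at 100 µM (adjusted p = 0.0238) and -0.27 ± 0.08 at 1000 µM (95% interval -0.45 to -0.09, adjusted p = 0.0146, edgeR's quasi-likelihood test, Benjamini-Hochberg adjusted). At 100 µM the call was lost without 0 µM replicate 1 (adjusted p = 0.0862), 0 µM replicate 2 (0.135), 100 µM replicate 2 (0.0814) or 100 µM replicate 3 (0.147). The 1000 µM call was lost without 0 µM replicate 2 (adjusted p = 0.0612) or 1000 µM replicate 1 (0.101), and without the filter on low counts it was lost at both doses (0.103 and 0.137).

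THBS1 (ENSG00000137801.10; chr15:39581079-39599466, plus strand) encodes thrombospondin-1, which can activate latent TGF-β and is a target of YAP and of TGF-β. It was highest at the middle doses. It stood at 30.0, 32.5 and 32.2 CPM at 0 µM, at 39.9, 40.8 and 48.5 CPM at 10 µM and at 31.6, 31.9 and 28.9 CPM at 1000 µM. The 10 µM libraries were all above, and the 1000 µM libraries overlapped, the libraries at 0 µM. The rise at 10 µM was 0.45 ± 0.13 (edgeR's quasi-likelihood test, Benjamini-Hochberg adjusted p = 0.0248), and the call was lost without 0 µM replicate 1 (adjusted p = 0.102), 0 µM replicate 2 (0.0582), 10 µM replicate 2 (0.0505) or 10 µM replicate 3 (0.0854). The libraries at 0.1 µM stood at 46.9, 51.5 and 38.5 CPM, and the difference of 0.53 ± 0.13 did not pass (adjusted p = 0.114), but it passed without 0.1 µM replicate 3 (0.0173) and with DESeq2 on all libraries (0.0107). It stood at 34.9, 39.8 and 40.6 CPM at 0.01 µM, at 47.1, 44.5 and 31.1 CPM at 1 µM and at 31.2, 33.3 and 34.6 CPM at 100 µM. THBS1 was thus above its 0 µM libraries in all 3 libraries at 0.01, 0.1 and 10 µM. At 1000 µM the difference from 0 µM was -0.03 with a 95% interval of -0.32 to 0.25. THBS2 and THBS4 had at most 2 and 5 counts, whereas COMP, of the same family, rose from 28.8 ± 1.03 to 42.6 ± 2.56 CPM (SD, n = 3) at 1000 µM, a log2 change of 0.57.

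TGFB1 (ENSG00000105329.9; chr19:41301587-41353911, minus strand), the main TGF-β ligand measured, varied widely between replicates. It stood at 87.8, 88.0 and 96.4 CPM at 0 µM, at 107, 122 and 121 CPM at 100 µM and at 169, 91.9 and 112 CPM at 1000 µM. The 1000 µM libraries overlapped those at 0 µM, and the difference of 0.45 ± 0.25 did not pass (95% interval -0.08 to 0.98, edgeR's quasi-likelihood test, Benjamini-Hochberg adjusted p = 0.151). At 100 µM all 3 libraries were above those at 0 µM, but the difference passed only with the 6 libraries of these groups (0.36, adjusted p = 0.0128, same test). The difference of 1000 from 0.1 µM did not pass either, but did with DESeq2 (adjusted p = 0.0414) or without 1000 µM replicate 2 (0.0318, edgeR). A slope on the rank of the doses passed with DESeq2 (0.0407) and in some edgeR fits without 1 library (0.0273 to 0.0499), not in the edgeR fit of all libraries. At 1 µM the 3 libraries were as far apart as 63.6, 102 and 157 CPM, and their mitochondrial shares were 4.95%, 7.80% and 14.2% in the same order. At 0.01 µM TGFB1 stood at 76.4, 105 and 105 CPM, at 0.1 µM at 76.6, 80.9 and 83.9 CPM and at 10 µM at 108, 114 and 79.7 CPM. Over the 21 libraries the Pearson r of TGFB1 with the mitochondrial share was 0.61, and with that share in the fit the difference at 1000 µM was 0.32. TGFB1 shares 215 exon bases with HNRNPUL1 on the other strand, which had 7388 to 13476 counts. Whether the counting used strand is not given in the sources used here.

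TGFB2 (ENSG00000092969.12; chr1:218346235-218444619, plus strand), a second ligand, had 0 counts in 16 of 21 libraries and at most 2 counts in the others, which is under the floor of 3 counts in every library. No comparison was made for it.

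**Figure D3:**
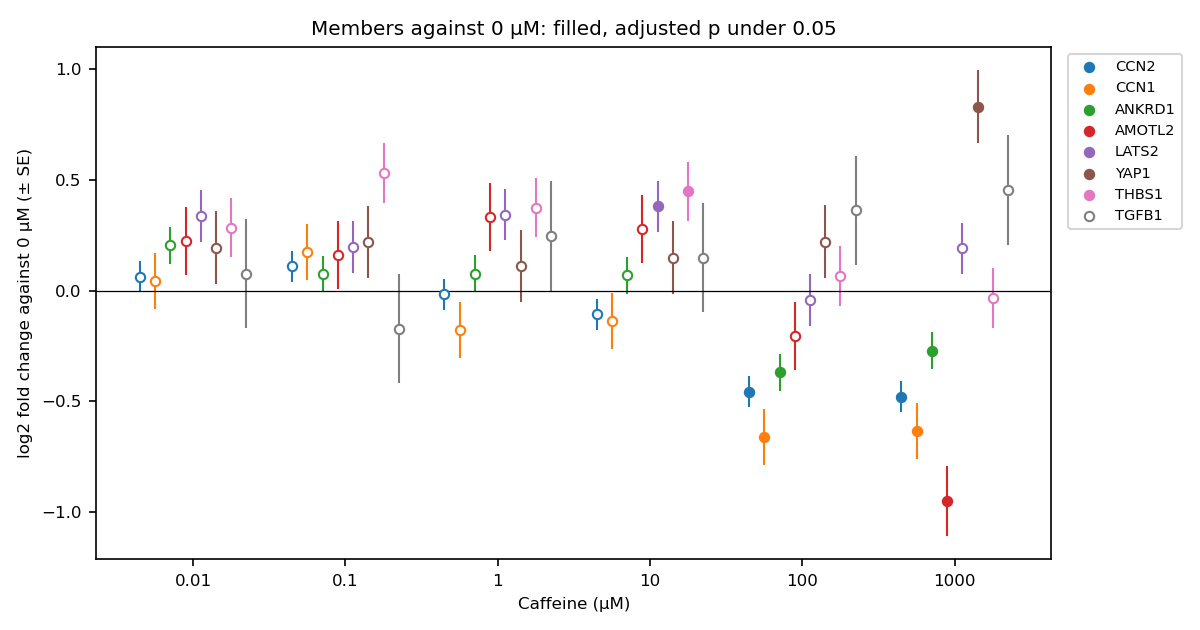
log2 fold change (± SE) of each of the 8 tested genes against 0 µM, by caffeine concentration in µM. Filled points passed an adjusted p of 0.05. Filled points below 0 occur at 100 and 1000 µM (CCN2, CCN1 and ANKRD1 at both, AMOTL2 at 1000 µM), and filled points above 0 are LATS2 and THBS1 at 10 µM and YAP1 at 1000 µM.

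The genes differed in the dose at which they were called against 0 µM. CCN2, CCN1 and ANKRD1 were called lower at 100 µM, 3 of 8 where 6.02% of all features were called and 3.27% were called lower. The libraries at 100 µM did not overlap those at 0 µM for 5 of 8, the same 3 with TGFB1 and YAP1 above, beside 43.0% of all features. The same 3 genes were near their 100 µM level at 1000 µM, with log2 differences between these doses of -0.02 ± 0.07, 0.03 ± 0.13 and 0.10 ± 0.08, none of which passed. AMOTL2 and YAP1 changed between 100 and 1000 µM, 2 of 8 where 14.7% of all features were called. At 10 µM, LATS2 and THBS1 were called higher, 2 of 8 beside 22.0% of all features called and 11.3% called higher. At 0.01, 0.1 and 1 µM, edgeR's quasi-likelihood test called 0 of 8, where it called 4.95%, 0% and 0% of all features. At an unadjusted p under 0.05 there were 3, 1 and 3 of the 8, beside 4567, 2651 and 3979 of all 17468 features. DESeq2 called 2, 1 and 2 of the 8 (ANKRD1 and LATS2, then THBS1, then LATS2 and THBS1). Its share over all features is not given here.

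These comparisons share the 0 µM libraries, so each dose was also set against the other doses. Those further comparisons share the libraries at 1000 or at 100 µM in turn, so they are not independent of one another. Against 0.01, 0.1, 1 and 10 µM, CCN2, CCN1, ANKRD1 and AMOTL2 were called lower and YAP1 higher at 1000 µM in all 4 comparisons, in which 18.5%, 24.3%, 22.3% and 18.4% of all features were called. THBS1 was also called lower at 1000 µM against 0.1, 1 and 10 µM. With only the 6 libraries concerned, CCN1 and YAP1 did not pass against 0.01 µM, nor CCN1, ANKRD1, THBS1 and YAP1 against 1 µM. Without 1000 µM replicate 3, CCN1 did not pass against 1 µM (adjusted p = 0.102) or 10 µM (0.0767), nor YAP1 against 0.01 µM (0.0607) or 0.1 µM (0.0638), nor THBS1 against 1 µM (0.137) or 10 µM (0.0822). THBS1 also did not pass against 1 µM without 1 µM replicates 1 or 2 (adjusted p = 0.149 and 0.122) or 1000 µM replicates 1 or 2 (0.0579 and 0.0665), or against 10 µM without 10 µM replicate 3 (0.0887). YAP1 also did not pass against 0.01 µM without 0.01 µM replicate 2 (adjusted p = 0.0552), or against 0.1 µM without 0.1 µM replicate 3 (0.0767). At 100 µM, CCN2 and ANKRD1 were called lower against 0.01, 0.1 and 1 µM, and CCN1 against 0.01 and 0.1 µM, in comparisons where only 0.149%, 0.258% and 0.143% of all features were called. In the fit restricted to the 6 libraries concerned, none of these genes passed against 0.01 or 1 µM. Single libraries decided several of these calls. Against 0.01 µM, CCN1 did not pass without 0.01 µM replicates 2 or 3 (adjusted p = 0.200 and 0.128) or 100 µM replicates 1, 2 or 3 (0.148, 0.186 and 0.113). Against 0.1 µM, CCN1 did not pass without 100 µM replicate 2 (0.0525), and ANKRD1 did not without 0.1 µM replicates 1, 2 or 3 (0.103, 0.180 and 0.0781) or 100 µM replicates 2 or 3 (0.121 and 0.137). Against 1 µM, CCN2 did not pass without 1 µM replicate 2 (0.0714) or 100 µM replicates 1 or 3 (0.0596 and 0.0912), and ANKRD1 did not without 1 µM replicates 1 or 2 (0.120 and 0.250) or 100 µM replicates 1, 2 or 3 (0.0596, 0.209 and 0.227). CCN2 and ANKRD1 against 0.01 µM and CCN2 against 0.1 µM passed without any single library. Against 10 µM, 0 of 8 were called at 100 µM by edgeR beside 0.0515% of all features. At an unadjusted p under 0.05 there were 6 of the 8, beside 1281 of all 17468 features, and DESeq2 called 3 (CCN1, CCN2 and ANKRD1). The lower libraries at 100 than at 10 µM were not limited to these genes. For AMOTL2, LATS2 and THBS1 too, every library at 100 µM lay below those at 10 µM, while TGFB1 and YAP1 overlapped. Their means went from 38.7 to 27.7 CPM (AMOTL2), 29.5 to 22.0 (LATS2) and 43.1 to 33.0 (THBS1). Among 0.01, 0.1, 1 and 10 µM, edgeR called 0 of 8 and 0% of all features in each of the 6 pairs. At an unadjusted p under 0.05 there were 0 to 2 of the 8 per pair, beside 414 to 2429 of all 17468 features.

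Across all 7 groups, 7 of 8 differed (all but TGFB1, edgeR's quasi-likelihood test, Benjamini-Hochberg adjusted p = 0.339), beside 28.1% of all features. The LATS2 call (adjusted p = 0.0352) was lost in 11 of the fits without 1 library, with adjusted p up to 0.0875 (without 0 µM replicate 1), and the YAP1 call (0.0105) without 1000 µM replicates 2 or 3 (0.0677 and 0.0887). A slope on the rank of the doses was called for 5 of 8, beside 29.1% of all features. Per dose step it was -0.13 ± 0.02 for CCN1 (adjusted p = 0.000552), -0.10 ± 0.02 for CCN2 (0.00026), -0.12 ± 0.04 for AMOTL2 (0.0350), -0.07 ± 0.02 for ANKRD1 (0.00545) and 0.09 ± 0.03 for YAP1 (0.0102), by the same test. Without the 1000 µM libraries only CCN1 and CCN2 kept a called slope, and without the 100 and 1000 µM libraries none did. The slope of AMOTL2 turned to 0.0662 without these 6 libraries. The AMOTL2 slope was also lost without 0.01 µM replicate 2 (adjusted p = 0.0571) or 1000 µM replicates 1, 2 or 3 (0.0983, 0.0994 and 0.116), and that of YAP1 without 1000 µM replicate 3 (0.0507).

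The other genes of both pathways did not follow the CCN genes as groups. Of 13 further YAP targets tested (16 listed), 5 rose and 3 fell at 1000 µM, beside 20.6% of all features called in each direction, and the median log2 change was 0.30. The share that fell was thus near that of all features. NUAK2, a kinase, fell from 5.74 ± 0.715 CPM at 0 µM to 3.58 ± 0.452 at 100 µM and 2.25 ± 0.157 at 1000 µM (SD, n = 3), a log2 difference of -1.35 at 1000 µM. ARHGEF17, a guanine nucleotide exchange factor (-0.50), and GADD45A, a stress-response gene (-0.39), also fell. The receptor tyrosine kinase AXL (1.06), ASAP1 (0.97), CRIM1 (0.61) and DOCK5 (0.55) rose. MYOF rose more (1.86) at a mean under 1 CPM and is named here after its values were seen. The ARHGEF17 call was lost without 1000 µM replicate 2 (adjusted p = 0.0806) and that of GADD45A without 0 µM replicate 1 (0.0542) or 1000 µM replicate 3 (0.0838). At 100 µM, ASAP1 was called higher (0.75) and NUAK2 (-0.68) and GADD45A (-0.51) lower, 3 of 13 beside 6.02% of all features. At 10 µM 7 of the 13 were called, beside 22.0% of all features, with 5 higher and 2 lower and a median of 0.36. The 2 lower were GADD45A (-0.48) and NUAK2 (-0.41), and ARHGEF17 was among the 5 higher (0.56), the opposite of its direction at 1000 µM.

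Genes that pass the signal to YAP or partner with it mostly rose. Of 19 tested (21 listed), 12 rose and 1 fell at 1000 µM, beside 20.6% of all features in each direction, with a median of 0.44. The kinases TAOK1 (1.25), LATS1 (0.60) and STK3 (0.59) rose, as did WWTR1 (0.62), the YAP paralogue also called TAZ, which went from 69.2 ± 8.97 to 106 ± 8.88 CPM (SD, n = 3). NF2, the upstream scaffold merlin, fell by 0.40 on the log2 scale. Of 19 tested, 7 were called without 0 µM replicate 1 or 0 µM replicate 2 and 8 without 1000 µM replicate 3. The NF2 call was lost without any of 0 µM replicates 1, 2 and 3 (adjusted p = 0.0954, 0.0691 and 0.0778) or 1000 µM replicates 2 and 3 (0.193 and 0.0836). At 100 µM 1 of the 19 was called, TAOK1 (0.70), a share near the 6.02% of all features. At 10 µM 6 of the 19 were called, all higher, where 11.3% of all features were called higher.

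Most tested genes of TGF-β signalling and of its other targets rose at 1000 µM, whereas CCN2 was already called lower at 100 µM. Of 18 ligands, receptors, SMADs and regulators tested (22 listed), 12 rose and 0 fell at 1000 µM by edgeR, beside the same 20.6% in each direction, with a median of 0.55. They included FURIN (1.25), the protease that cleaves the TGF-β precursor, the integrin subunit ITGAV (1.05), the pseudoreceptor BAMBI (1.16) and the ubiquitin ligase SMURF2 (0.88). At 10 µM 6 of the 18 were called, 5 higher and 1 lower, beside 22.0% of all features. The 1 lower was BAMBI (-0.46, edgeR's quasi-likelihood test, Benjamini-Hochberg adjusted p = 0.00664), whose direction thus differed between these doses. At 100 µM edgeR called 0 of the 18, beside 6.02% of all features. Between 100 and 1000 µM it called 10, all higher, beside 14.7% of all features called in either direction. Among the 10 were SMAD2 (0.50), SMAD3 (0.54) and SMAD4 (0.54).

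Of 17 further TGF-β target genes tested (23 listed), 10 rose and 1 fell at 1000 µM, where 20.6% of all features were called higher, with a median of 0.65. SKIL, a repressor of SMAD proteins, stood at 12.8 ± 1.27 CPM at 0 µM, 17.6 ± 1.66 at 100 µM and 52.6 ± 7.46 at 1000 µM (SD, n = 3). Its log2 change of 2.04 at 1000 µM had an adjusted p of 3.21e-06 (edgeR's quasi-likelihood test, Benjamini-Hochberg), and the 3 libraries at 1000 µM, from 45.9 to 60.7 CPM, lay above every library at 0 µM. The transcriptional regulators KLF10 (1.45) and ZEB1 (1.28) rose too. SMAD7, the inhibitory SMAD, went from 25.2 ± 2.19 to 53.1 ± 2.30 CPM (SD, n = 3), and it and CDKN2B (1.99, under 1 CPM on average) are named after their values were seen. TIMP1 was the 1 gene of the list that fell (-0.54), and its call was lost without 0 µM replicates 1 or 2 (adjusted p = 0.0727 and 0.0675) or 1000 µM replicates 2 or 3 (0.0698 and 0.110). At 100 µM 3 of the 17 were called, all higher, beside 6.02% of all features, and KLF10 (0.70) and ZEB1 (0.67) were among them. Lower calls by edgeR were 0 of the list, where 3.27% of all features were called lower. PMEPA1 was at 0 in all libraries, and VIM had at most 1 count.

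**Figure D4:**
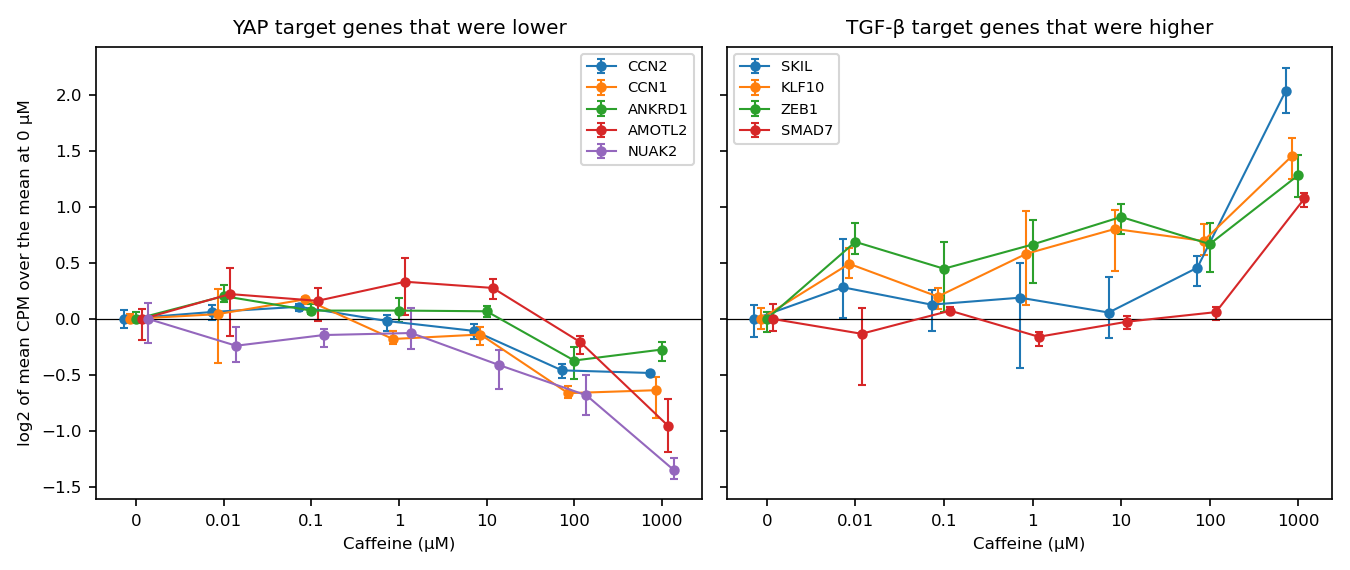
log2 of the mean CPM over the mean at 0 µM, by caffeine concentration in µM, for the 4 YAP targets described here that fell with NUAK2 (left) and for 4 TGF-β targets that rose (right). Points are means of 3 libraries and bars run from the lowest to the highest library. CCN2, CCN1, ANKRD1 and AMOTL2 are lower at 100 than at 10 µM, and AMOTL2 is lower again at 1000 µM. The 4 genes on the right are highest at 1000 µM.

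Targets of SRF and MRTF, which share several genes with the YAP programme, were mixed. Of 16 tested, 4 fell and 1 rose at 1000 µM, with a median of -0.04. The share that fell was near the 20.6% of all features called lower, and the share called in all was below the 41.2% of all features. The actin genes ACTA2 (-0.87) and ACTB (-0.61), CNN2 (-0.56) and TAGLN (-0.43) fell, and FILIP1L (0.85) rose. The TAGLN call was lost with other size factors (adjusted p = 0.0529), with the replicate block (0.0571), and without any of 0 µM replicates 1, 2 and 3 (0.113, 0.0933 and 0.0665) or 1000 µM replicates 2 and 3 (0.123 and 0.161). Between 100 and 1000 µM, 5 of the 16 fell and 0 rose by edgeR, beside 14.7% of all features called in either direction. At 100 µM against 0 µM 2 rose and 0 fell, beside 6.02% of all features called.

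**Figure D5:**
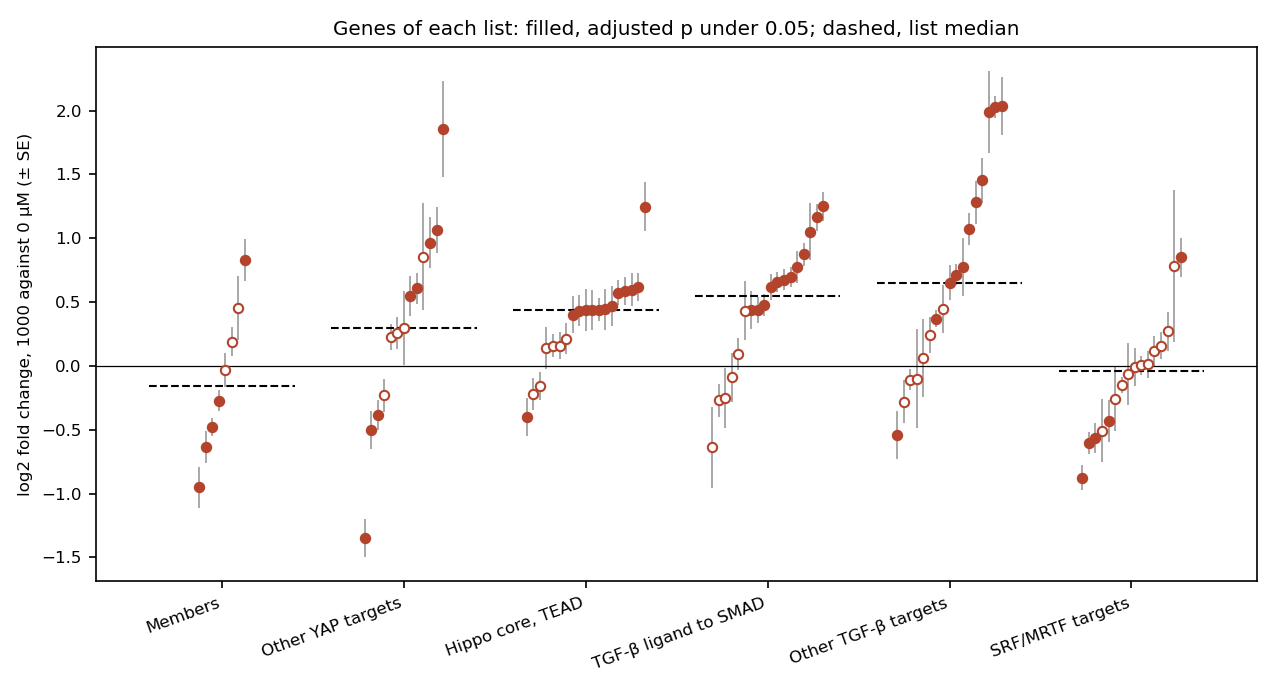
log2 fold change (± SE) at 1000 µM against 0 µM of each tested gene, by list. Filled points passed an adjusted p of 0.05 and dashed lines are list medians, which run from -0.15 for the genes described here to 0.65 for the other TGF-β targets.

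The 4 genes that fell also varied together over the 21 libraries, which share the dose steps. The Pearson r of log2 CPM was 0.89 between CCN1 and CCN2, 0.88 between CCN2 and ANKRD1 and 0.74 between CCN2 and AMOTL2, and the other pairs of the 4 were at 0.72 (CCN1 and ANKRD1), 0.70 (CCN1 and AMOTL2) and 0.61 (ANKRD1 and AMOTL2). YAP1 had an r of -0.79 with AMOTL2, -0.54 with CCN1, -0.48 with CCN2 and -0.31 with ANKRD1. LATS2 had an r of 0.22 with CCN1 and 0.37 with CCN2.

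Among 12435 genes with a symbol and at least 1 CPM on average, those most like CCN2 over the 21 libraries were OTUB2 (r = 0.92), CDKN1A (0.92) and AJUBA (0.91). CCN1 was most like CCN2 (0.89), GRIN2C (0.86) and CDKN1A (0.85), and ANKRD1 was most like CCN2 (0.88), SLC39A10 (0.87) and POU4F1 (0.86). CCN2 thus stood first for both of these genes. AMOTL2 was most like USP2 (0.97), CES2 (0.95) and PPP1R10 (0.95). YAP1 was most like AGPS (0.97), YES1 (0.97) and SNTB1 (0.96). LATS2 had weaker neighbours in ADNP2 (0.83), HEG1 (0.82) and PALM2AKAP2 (0.82). THBS1 was most like DUSP16 (0.93), MTMR4 (0.93) and ZZEF1 (0.91), and TGFB1 had LTBR (0.96) and DMTN (0.94) among those most like it.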

How the data were processed

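RNA was purified with Trizol, selected on poly(dT) beads and reverse transcribed, per the labels' protocols. The authors deposited whole-number read counts per gene without normalization, and HISAT2, DESeq2 and GRCh38 are named in the submitters' processing notes. The counting program, the annotation and the use of strand are not given in the sources used here. The table has 42 sample columns, and the 21 that carry no label of these samples were not used. IDs were matched to symbols without their version.

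edgeR 4.0.16 (R 4.3.3) was fitted once to all 21 libraries in 7 groups, with TMM scaling, a low-count filter (filterByExpr, minimum 10) and 14 residual degrees of freedom. The common biological coefficient of variation was 0.162. Every pair of groups and all groups together were tested in this 7-group fit. A slope on the dose step (0 to 6) was tested in a separate fit of the same libraries, with its own estimate of the spread. Benjamini-Hochberg adjustment was over all 17468 features, with a threshold of 0.05. The SE is the log2 fold change over the square root of F, and 95% intervals use the residual degrees of freedom. Correlations use log2 CPM with a prior count of 2 and carry no p.

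The genes and lists were chosen with earlier results of these data known. From each list up to 4 higher and 4 lower genes with at least 1 CPM on average were named, by size of change at 1000 µM, and others are marked as chosen later. Some genes that would be named are not reported here. Replicates of a group differed by a chi-square statistic per gene of 5.45 to 207 over 21 pairs, so none was a repeat deposit. Floors cover counting error only. The fit was also run on simulated counts drawn with the same spread for every gene, so that run does not measure error rates in these data. Alternatives were DESeq2 1.42.0, other size factors, other count filters, a replicate block, fits of 2 groups, leaving out each library, a linear dose, a threshold of 0.01 and a covariate of the mitochondrial share.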

Additional observations from a re-analysis of the deposited data

How the results depend on the processing

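The calls of CCN2, CCN1, AMOTL2 and YAP1 at 1000 µM against 0 µM kept their direction and passed in all 14 alternatives run, and the count at that dose was 4 to 5 of 8 without 1 library. DESeq2 called 2, 1, 2 and 3 genes at 0.01, 0.1 and 1 µM against 0 µM and at 100 against 10 µM, where edgeR called 0, and the covariate of the mitochondrial share, added after the data were seen, called 1 in the last. Shares of all features called by DESeq2 are not given here. With only the 6 libraries compared, the count was 5 at 100 against 0 µM, 3 and 2 at 1000 against 0.01 and 1 µM, and 0 and 0 at 100 against 0.01 and 1 µM. At an adjusted p under 0.01 it was 0 at 10 and 1 at 100 µM against 0 µM, 1 at 1000 against 100 µM, 0 at 100 against 1 µM, 4 among the groups and 3 for the slope, and 7 Hippo genes were called. Without the filter on low counts it was 0 at 100 against 1 µM.

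With the 1000 µM libraries left out, 3 genes passed among the groups and 2 for the slope, and with those at 100 µM left out too, 0 and 0. In that fit, added after the data were seen, the slope of AMOTL2 turned to 0.0662. In fits that lack a single library, counts against 0 µM were 0 to 2 for 0.1 µM (2 without 0.1 µM replicate 3), 0 to 1 for 10 µM and 1 to 3 for 100 µM. They were 1 to 2 for 1000 against 100 µM, 1 to 3 for 100 against 0.1 µM, 0 to 2 for 100 against 1 µM, 3 to 6 for the slope (3 without 1000 µM replicate 3) and 7 to 11 for the Hippo genes.

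Replicate numbers did not pair the libraries. Over 63 same-numbered pairs the correlation of deviations ran from -0.44 to 0.25, with 11 over 0.1, and 5 of 21 libraries correlated best with their own number. With the replicate block the count was 1 in place of 2 at 100 against 1 µM (ANKRD1 lost, adjusted p = 0.0514) and 2 in place of 3 at 100 against 0.01 µM (CCN1 lost, 0.0715), and 5 as before at 1000 against 0 µM. With 3 libraries per group, small differences may be missed.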
